A study of Mus musculus with 6 samples.

Results

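Chaperones and their co-chaperones were followed by family in MC3T3-E1 cells, a mouse line of osteoblastic cells from newborn skull bone, after fluid flow. A gene was included where its platform symbol names an Hsp70, Hsp110, Hsp90, small Hsp, Hsp60, Hsp10, Dnaj, Cct or Bag protein, or is Tcp1, Hspbp1, Ahsa1, Stip1 or Stub1, and where a probe of it stood in the deposited log2 table. These were 55 of 8566 named genes, each read from its probe with the highest mean log2 intensity. They comprised 7 Hsp70 and Hsp110 genes, 2 Hsp90 genes, 4 small Hsp genes, 2 genes of the mitochondrial chaperonin (Hsp60 and Hsp10), 24 Dnaj genes (3 Dnaja, 5 Dnajb and 16 Dnajc), 6 Cct genes, 6 Bag genes and 4 further co-chaperones. Of the 55, 51 were detected on all 6 arrays. The others were Hspa1b, detected on 4 arrays, Hspb2 and Cct2, on 2 each, and Dnaja1, on 1.

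The study set rest-inserted flow (RF) beside 60 min of continuous flow (CF) and no flow (NF). In RF, 4 bouts of 5 min of flow were each followed by 10 min of rest, so its 60 min ended in rest. RNA was taken 1 h or 0 h after this period, which the labels call post flow. Flow came from orbital shaking of culture plates in an incubator, and the no flow cells received none. One array was hybridized for each of the 6 conditions, with RNA pooled from 3 experiments, which leaves the spread between experiments unmeasured. The line is a single clone, and the pools leave only 2 residual degrees of freedom for any test. An effect of a single array cannot be told apart from that of its condition. Between 13472 and 14426 probes were detected per array. Of 10 osteoblast markers 6 had a named probe in the table, and Col1a1, Col1a2, Sp7, Ibsp and Bglap2 were detected on all 6 arrays, Alpl on 2. Of 5 chondrocyte markers 2 were in the table, Col2a1 and Sox9, both detected on all 6. Of 5 macrophage and osteoclast markers 2 were, the osteoclast protease Ctsk, detected on all 6, and Csf1r, on 1. Of 5 muscle markers 1 was, Myog, detected on 2. None of 4 adipocyte and none of 4 endothelial markers was in the table.

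Chaperones hold unfolded or partly folded proteins and help them reach or keep their shape. Hsp70 proteins bind short exposed stretches in a cycle driven by ATP, in which Dnaj proteins deliver the client and start hydrolysis and Hsp110, Bag and Hspbp1 proteins release the spent nucleotide. Hsp90 matures kinases and receptors, small Hsps hold unfolding proteins without ATP, and the Cct ring folds actin and tubulin. The stress-inducible members are driven by heat shock factor 1, which binds repeats of GAA and its complement TTC (heat shock elements).

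Heat shock elements were searched in the RefSeq promoters of the chaperone genes, 250 bases before to 50 bases after each start site (build GRCm38.p6), on both strands. An element of 2 units was GAANNTTC or TTCNNGAA, which can overlap one another, and an element of 3 units added an inverted unit after 2 free bases. Of the 55 genes, 44 matched a promoter, with 56 start sites among them. A 2-unit element stood in 16 of these 56 promoters (28.6%), against 15.1% of all 32851 promoters and 11.3% of 9004 promoters of genes measured here. A 3-unit element stood in 6 of them (10.7%), against 0.603% of all promoters and 0.433% of those of measured genes. Some of these windows overlap, so promoters are not independent of each other.

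The promoters of the inducible Hsp70 gene, of a small Hsp gene, of the Hsp110 gene and of the genes with elements of 3 units are shown, since their elements differ in number and arrangement. Each stretch covers the 200 bases before a start site, 5′ to 3′ on the gene's strand, with the elements in capitals. The site is the one farthest upstream among those whose window holds an element. Hspd1 has 2 start sites, and only the one shown has an element in its window. They lie at chr17:34959239-34959438 (minus strand) for Hspa1b, chr5:135887719-135887918 (plus) for Hspb1, chr5:149636337-149636536 (minus) for Hsph1, chr1:55087933-55088132 (minus) for Hspd1 and chr5:29735698-29735897 (plus) for Dnajb6.
Hspa1b: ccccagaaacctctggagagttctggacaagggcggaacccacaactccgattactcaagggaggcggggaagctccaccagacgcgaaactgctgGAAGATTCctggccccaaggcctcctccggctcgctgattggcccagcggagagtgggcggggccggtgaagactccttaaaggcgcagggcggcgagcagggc
Hspb1: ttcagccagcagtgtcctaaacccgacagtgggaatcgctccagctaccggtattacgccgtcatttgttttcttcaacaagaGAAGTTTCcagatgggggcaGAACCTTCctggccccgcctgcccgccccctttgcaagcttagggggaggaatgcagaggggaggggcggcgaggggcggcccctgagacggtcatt
Hsph1: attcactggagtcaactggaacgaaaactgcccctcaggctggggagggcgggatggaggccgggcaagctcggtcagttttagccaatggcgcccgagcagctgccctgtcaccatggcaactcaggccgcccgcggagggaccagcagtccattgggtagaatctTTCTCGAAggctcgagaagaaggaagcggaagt
Hspd1: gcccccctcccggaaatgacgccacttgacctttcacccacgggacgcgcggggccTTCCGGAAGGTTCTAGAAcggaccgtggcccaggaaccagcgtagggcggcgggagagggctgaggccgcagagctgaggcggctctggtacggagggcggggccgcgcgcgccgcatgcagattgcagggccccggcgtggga
Dnajb6: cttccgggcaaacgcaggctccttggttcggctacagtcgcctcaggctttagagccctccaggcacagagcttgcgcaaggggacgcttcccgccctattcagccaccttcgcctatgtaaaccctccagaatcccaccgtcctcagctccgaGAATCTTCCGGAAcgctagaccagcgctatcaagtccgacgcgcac
Only exact units were searched, so an element whose units depart from GAA or TTC is not marked. Hspa1b carried a single exact 2-unit element, starting at position -104 from its start site. Hspb1 carried 2 separate ones, at -117 and -97. In Hspd1 the run in capitals joins 3 overlapping elements that start at -144, -139 and -134, and the divergent neighbour Hspe1 reads the same run from its own start site at -89, -84 and -79. The 3-unit element of Hsph1 lies past the start site and is outside the stretch shown.

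Measured against no flow, the chaperone genes detected on all 6 arrays stayed near level as a class. The inducible Hspa1b was detected with flow only, and the share of all genes with that pattern was not counted here. Ratios are log2 differences between single arrays of the same time. Where a probe is not well above background its ratio has no measured size, so medians and counts are given over the 51 genes detected on all arrays unless stated. Their median was 0.03 (RF) and 0.06 (CF) at 1 h, and 0.01 (RF) and -0.01 (CF) at 0 h, and over all 7321 genes detected on all arrays it lay between -0.0058 and 0. Over the 204 ratios of flow to no flow the median size was 0.083, against 0.099 over all such genes, and 2.94% of the chaperone ratios reached 0.5 in size, against 2.40% of all ratios.

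Because dim probes scatter more than bright ones, each gene was also placed among the 400 genes nearest to it in mean log2 intensity. A value above the 95th or below the 5th percentile of those genes counted as past the band of like intensity. Ranked by size among genes of like intensity, the chaperone flow ratios had a median percentile of 51.2, against 49.8 for all genes. At 1 h, 4 of 51 chaperone genes were past it with RF (9.63% of all genes detected on all arrays were) and 6 with CF (9.53%). At 0 h the counts were 4 with RF (9.67%) and 6 with CF (9.68%). None was past the same end at both times with RF (0.697% of all genes were) or with CF (0.82%). All 4 ratios were above 0 for 6 of 51 genes (Hspa8, Hspa9, Hspd1, Dnajb1, Bag1 and Bag6), or 11.8%, against 12.1% of all genes. All 4 were below 0 for 1 gene, the mitochondrial co-chaperone Dnaja3, against 12.7% of all genes. Its ratios ran from -0.10 to -0.03.

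**Figure D1:**
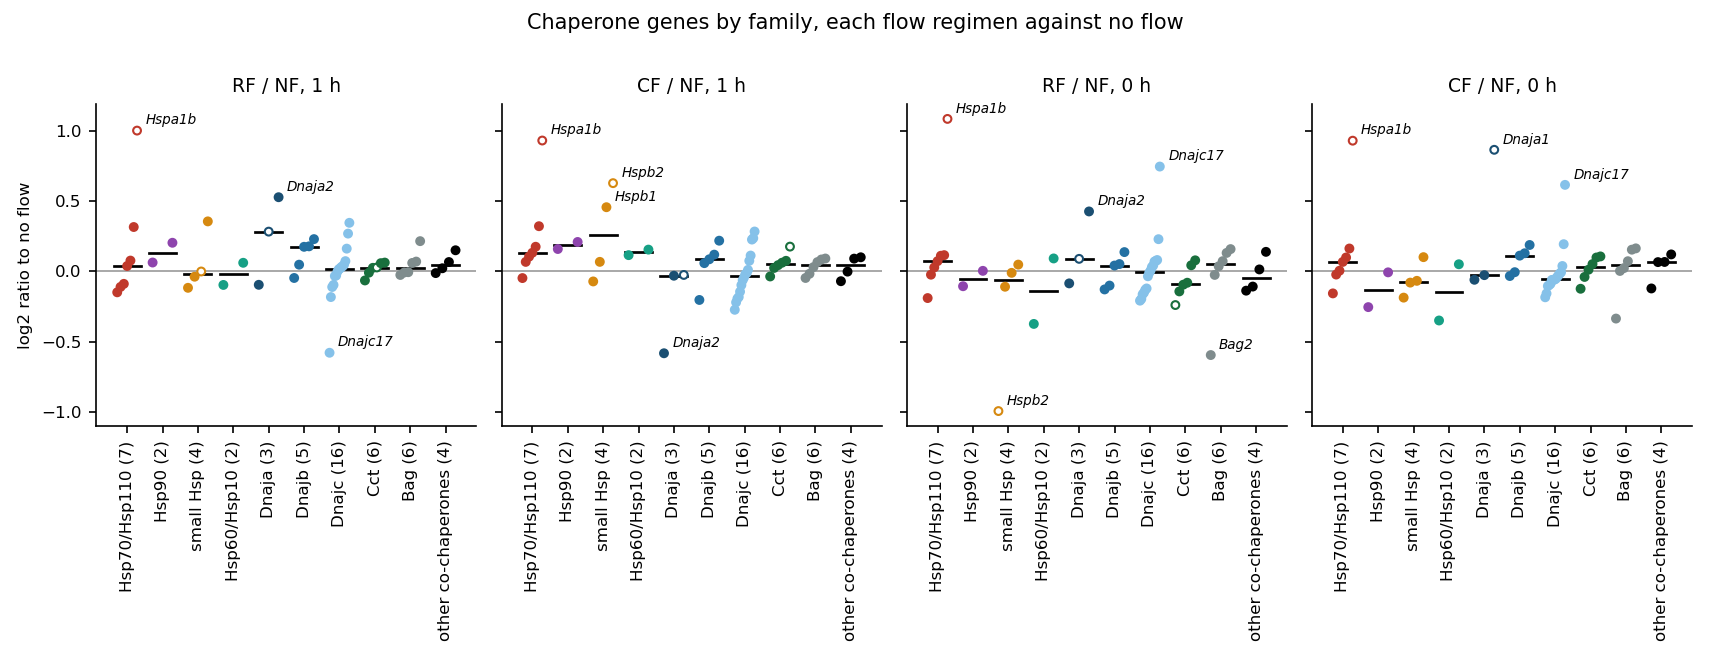
Log2 ratio of each flow regimen to no flow (vertical axis) for the 55 chaperone genes by family (horizontal axis, number of genes in brackets), in 4 panels for RF and CF at 1 h and at 0 h. Points are genes, open where the probe was not detected on both arrays of the ratio, and black lines are medians of all points of a family, between -0.15 and 0.28; the open point of Hspa1b near 1 is a ratio to arrays on which it was not well above background.

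Hspa1b, the stress-inducible cytosolic Hsp70, read 4.94 with RF and 4.87 with CF, against 3.94 with no flow, at 1 h (log2 intensity). At 0 h it read 5.01 with RF and 4.86 with CF, against 3.92 with no flow. Every flow array was thus above both no flow arrays, and the gene was detected on the 4 flow arrays and not well above background on the 2 no flow arrays. It thus passed the detection filter through the flow arrays alone, a filter that favours probes higher with flow. Its ratios to no flow therefore have no measured size, and only a bound can be given. Each no flow array was set at its lowest signal of a detected probe. Against that, the readings of Hspa1b were at least 1.83-fold higher with RF and 1.69-fold higher with CF. In log2 these are 0.87 and 0.76, each a mean over both times. The band of like intensity holds ratios of single arrays and is no measure for them. Both bounds treat single dim readings as exact, so they are not lower limits for an effect of flow.

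In the limma fit on flow and time the adjusted p of Hspa1b for the mean of both flows was 0.517, with the no flow values below detection. No other chaperone gene had an unadjusted p under 0.05 for the mean flow (6.1% of 13183 probes had one), for RF (5.39%) or for CF (6.1%). No chaperone gene and 0% of all probes passed an adjusted p of 0.05 in any of these 3 contrasts. The regimens were close to each other for Hspa1b, with RF over CF at 0.07 at 1 h and 0.16 at 0 h, and 1 h over 0 h was -0.07 in RF and 0.01 in CF. Hspa1a is a near-identical neighbouring gene, and which copy the probe reads is uncertain. With a signal floor of 32 in place of 10 nearly all its values lie at the floor and the mean flow difference is 0.003.

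The other Hsp70 and Hsp110 genes stayed within 0.2 of no flow, except Hsph1 with RF and Hspa4 with CF, both at 1 h. The constitutive cytosolic Hspa8 read 12.65 with RF and 12.68 with CF, against 12.57 with no flow, at 1 h. At 0 h it read 12.63 with RF and 12.70 with CF, against 12.60 with no flow. All 4 ratios of this bright probe were positive, and none was over 0.11. The other 2 probes of Hspa8 had 0.02 and 0.03 for the mean flow, and neither was positive in all 4 ratios. The brighter of them had -0.07 with CF at 1 h, and the dimmer was positive there alone (0.28).

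The mitochondrial Hspa9 had ratios of 0.04 (RF) and 0.07 (CF) at 1 h and 0.12 (RF) and 0.16 (CF) at 0 h. Hspa2, known from testis, lay between -0.09 and 0.07. Its other probe, which is dimmer, had 0.36 (RF) and 0.34 (CF) at 1 h and 0.08 (RF) and 0.29 (CF) at 0 h, so the probes of Hspa2 differed. Hspa4, an Hsp110-type exchange factor, had 0.32 with CF at 1 h and -0.11, -0.19 and -0.16 in the other 3 ratios. Hspa12b, a distant relative known from endothelium, lay between -0.15 and 0.13.

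Hsph1, the inducible Hsp110, read 9.78 with RF and 9.64 with CF, against 9.46 with no flow, at 1 h. At 0 h its 3 arrays read 9.57 with RF, 9.57 with CF and 9.59 with no flow. The flow arrays stood apart from no flow at 1 h alone, at 0.32 with RF, past the band (0.15), and 0.18 with CF, inside it (0.20). The median of the 6 genes without Hspa1b was -0.02 (RF) and 0.12 (CF) at 1 h and 0.05 (RF) and 0.04 (CF) at 0 h.

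**Figure D2:**
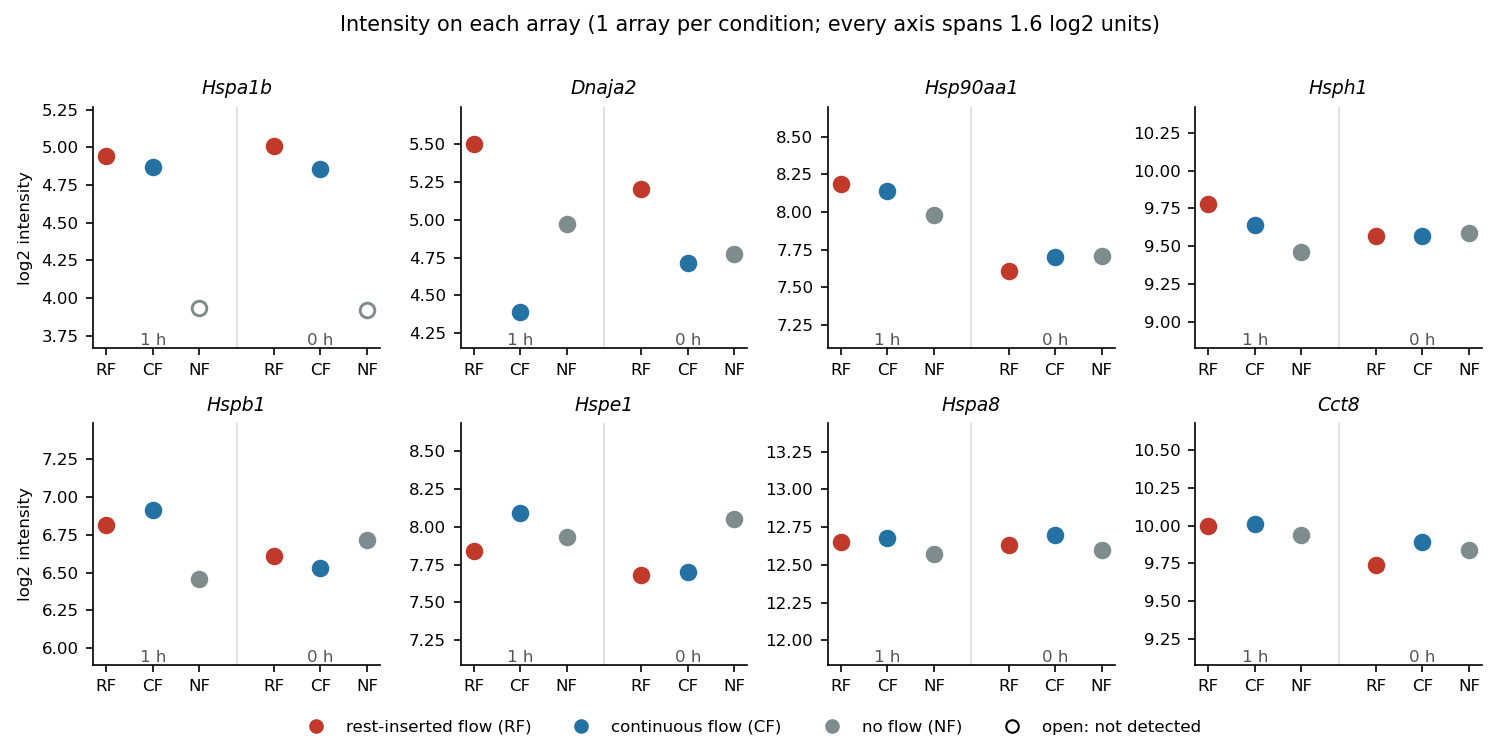
Log2 intensity (vertical axis, spanning the same width in each panel) of 8 chaperone genes on the 6 arrays, RF, CF and NF at 1 h on the left and at 0 h on the right, with 1 array per point and open points where the probe was not detected. Hspa1b is near 5 on the 4 flow arrays, with open points near 3.9 on the 2 no flow arrays, and Hsp90aa1 is above 7.9 on the 3 arrays at 1 h and below 7.8 at 0 h.

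In the Hsp90 pair the 4 flow ratios lay between 0.06 and 0.21 at 1 h and between -0.25 and 0.00 at 0 h. Hsp90aa1, the inducible cytosolic form, read 8.19 with RF and 8.14 with CF, against 7.98 with no flow, at 1 h. At 0 h it read 7.61 with RF and 7.70 with CF, against 7.71 with no flow. Hsp90b1, the form of the endoplasmic reticulum, read 11.16 with RF and 11.31 with CF, against 11.10 with no flow, at 1 h, and 11.30 with RF and 11.04 with CF, against 11.30 with no flow, at 0 h. The medians of the pair were 0.13 (RF) and 0.19 (CF) at 1 h and -0.05 (RF) and -0.13 (CF) at 0 h. Limma placed the mean flow difference of Hsp90aa1 at 0.06 ± 0.09 (adjusted p = 0.945) and that of Hsp90b1 at 0.01 ± 0.13 (SE, 6 arrays, adjusted p = 0.996).

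Among the small Hsps only Hspb1, which binds unfolding proteins and actin, stood past the band at 1 h, in both regimens. It read 6.82 with RF and 6.92 with CF, against 6.46 with no flow, at 1 h. At 0 h it read 6.61 with RF and 6.53 with CF, against 6.72 with no flow. Its flow arrays were above no flow at 1 h, by 0.36 and 0.46, and below it at 0 h, by values of -0.11 and -0.19 that lie inside the band. The no flow arrays differed too, with 1 h over 0 h at -0.26.

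Hspb8, a partner of Bag3, and Hspb6 were near level, with all ratios of both between -0.12 and 0.10. Hspb2, known from muscle, stood at the floor on 3 arrays and was detected on 2, which leaves its ratios without a measured size. Across the 3 measured genes the median was -0.04 (RF) and 0.07 (CF) at 1 h and -0.01 (RF) and -0.07 (CF) at 0 h.

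The mitochondrial chaperonin genes share a promoter region, and their values differed. Hspd1, the ring, had ratios of 0.06 (RF) and 0.12 (CF) at 1 h and 0.09 (RF) and 0.05 (CF) at 0 h. Hspe1, the lid, read 7.84 with RF and 8.09 with CF, against 7.94 with no flow, at 1 h, and 7.68 with RF and 7.70 with CF, against 8.05 with no flow, at 0 h. Both flow arrays were thus lower than no flow at 0 h, at -0.37 and -0.35, each past the band (-0.26 and -0.24). The mean flow difference of Hspe1 was -0.17 ± 0.13 (SE, 6 arrays) and did not pass limma (adjusted p = 0.904).

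The Cct genes, which encode subunits of a single ring complex, had ratios to no flow with a median size of 0.061 over the 5 genes detected on all arrays. Cct2 was detected with CF and with no flow at 0 h only, where CF over no flow was 0.11. The medians of the 5 were 0.03 (RF) and 0.05 (CF) at 1 h and -0.08 (RF) and 0.01 (CF) at 0 h. Cct3, Cct4, Cct6a, Cct8 and Tcp1 (the first subunit) stayed between -0.14 and 0.10. For the 4 further co-chaperones, Ahsa1 (activator of the Hsp90 ATPase), Stip1 (bridge between Hsp70 and Hsp90), Stub1 (a ubiquitin ligase for chaperone clients) and Hspbp1, all 16 ratios lay within 0.2 in size.

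The 23 Dnaj genes detected on all arrays had medians of 0.03 (RF) and -0.02 (CF) at 1 h and 0.01 (RF) and -0.03 (CF) at 0 h. Dnajb1, the classical Hsp40 that works with Hspa1b and Hspa8, had 0.05 (RF) and 0.22 (CF) at 1 h and 0.05 (RF) and 0.11 (CF) at 0 h. Dnajc25 had 0.35 (RF) and 0.29 (CF) at 1 h and 0.23 (RF) and -0.10 (CF) at 0 h. Dnajc17, a nuclear member linked to splicing, read 4.31 with RF and 4.74 with CF, against 4.89 with no flow, at 1 h, and 4.98 with RF and 4.85 with CF, against 4.24 with no flow, at 0 h. Its flow arrays lay below no flow at 1 h and past the band above it at 0 h (0.75 and 0.62), and its mean flow difference was 0.16 ± 0.29 (SE, 6 arrays). Dnaja1 was detected with CF at 0 h alone. Among the Dnajb genes 17 of 20 flow ratios were under 0.2 in size, and among the Dnajc genes 52 of 64.

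Of the 6 Bag genes, exchange factors of Hsp70, Bag2 had the largest mean flow difference in size. It read 5.07 with RF and 5.16 with CF, against 5.08 with no flow, at 1 h, and 4.73 with RF and 4.99 with CF, against 5.33 with no flow, at 0 h. The 3 arrays at 1 h were alike, and at 0 h RF stood at -0.60, past the band, and CF at -0.34, inside it. Bag3, the stress-inducible Bag gene of selective autophagy, had -0.02 in each regimen at 1 h and 0.16 in each at 0 h. Of the 24 Bag ratios 21 were under 0.2 in size, and the other 3 were those of Bag2 at 0 h and of Bag5 with RF at 1 h (0.22).

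Rest-inserted flow set against continuous flow gave small differences of mixed sign. RF also held fewer minutes of flow and ended in rest, which cannot be told apart from the insertion of rest. At 1 h 10 of the 51 chaperone genes were past the band (19.6%), against 9.63% of all genes. Of these 10, 7 were Dnaj genes, which make up 23 of the 51. At 0 h 2 were past it (9.68% of all genes), and none was past the same end at both times (0.765%). Over all comparisons between single arrays the share of the 51 past the band ran from 3.92% to 19.6%, so this 1 h value was the highest. Of the 51 genes, 11 lay above continuous flow at both times (26.5% of all genes) and 17 below it at both (24.6%). In limma 2 of all 55 chaperone genes, Dnaja2 and Hspb2, had an unadjusted p under 0.05 (4.74% of probes). Hspb2 was not detected with RF at either time, so its difference has no measured size. None of the 55 had an adjusted p under 0.05 (0% of probes).

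Dnaja2, a cytosolic partner of Hspa8, read 5.51 with RF and 4.39 with CF at 1 h, with no flow at 4.98 between them. At 0 h it read 5.20 with RF and 4.72 with CF, with no flow at 4.77. RF was the highest and CF the lowest of the 3 arrays at each time, and the 2 RF arrays lay above all 4 others. RF over CF was 1.11 at 1 h, past the band's edge of 0.55, and 0.49 at 0 h, just inside its edge of 0.50. The fitted difference was 0.80 ± 0.18 (SE, 6 arrays) with an adjusted p of 0.983 in limma (unadjusted 0.0109). It was 0.35 with a signal floor of 32 and 0.51 without the CF array at 1 h. It is a dim probe, the only one of its gene in the table.

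The other Dnaj genes past the band at 1 h, named here for that after their values were seen, split in direction. Dnajb12 (0.38) and Dnajc18 (0.49), both of the endoplasmic reticulum membrane, and Dnajc10 (0.32), a reductase of its lumen, were higher with RF. Dnajb1 (-0.17), Dnajc7 (-0.26) and Dnajc8 (-0.33) were lower with RF. At 0 h these 6 ratios were -0.09, 0.06, -0.12, -0.06, -0.07 and 0.02 in the same order, all inside the band. For Dnajc10 the other 2 probes had 0.14 and -0.33 at 1 h, so its probes differed in sign.

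Hsp90b1 was past the band at both times but at opposite ends, at -0.15 at 1 h and 0.26 at 0 h. Hspe1 stood at -0.25 at 1 h and -0.02 at 0 h, and Hspa12b at -0.28 and 0.04. Family medians of RF over CF were -0.04 and -0.02 for Hsp70 and Hsp110, -0.05 and 0.08 for Hsp90, -0.10 and 0.08 for small Hsps, 0.06 and -0.02 for Dnaj and -0.02 and -0.06 for Cct, at 1 h and 0 h in each case.

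**Figure D3:**
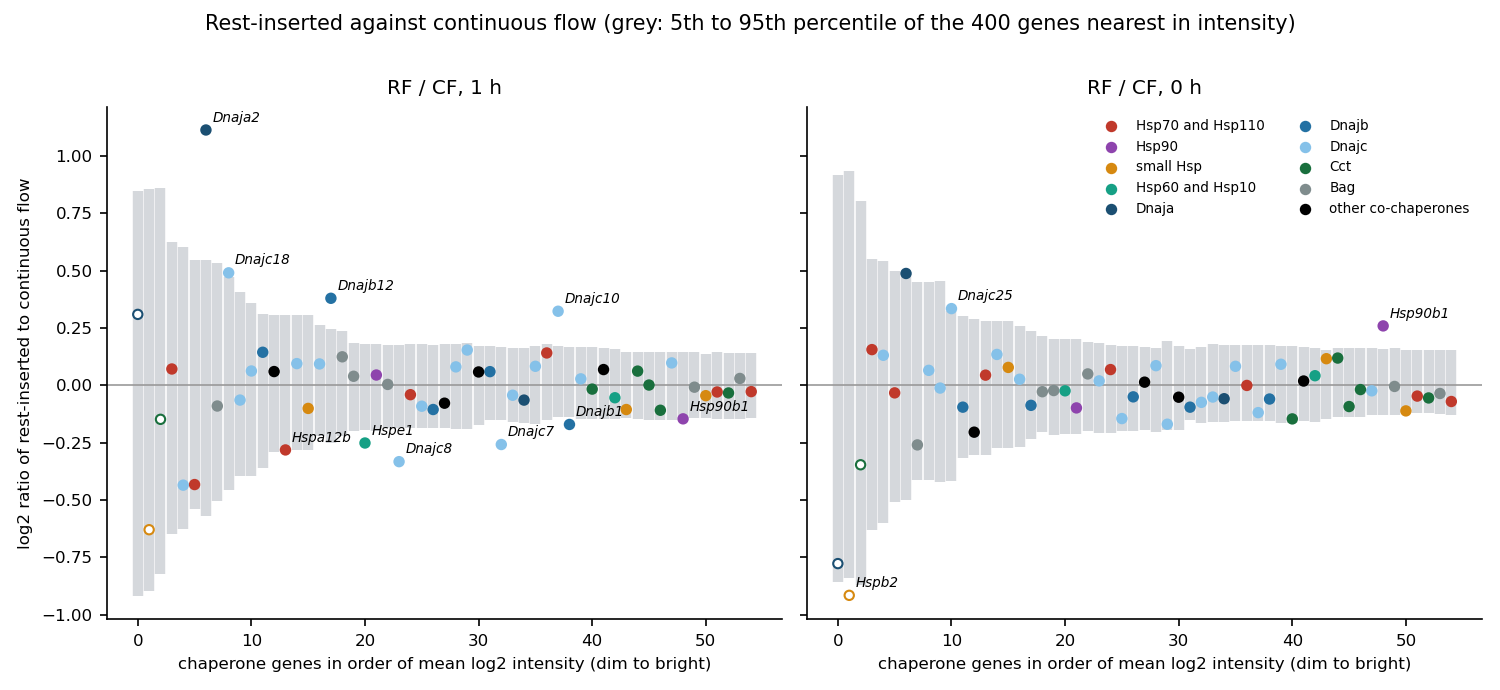
Log2 ratio of rest-inserted to continuous flow (vertical axis) at 1 h (left) and 0 h (right) for the 55 chaperone genes, ordered from dim to bright (horizontal axis) and coloured by family, with grey bars from the 5th to the 95th percentile of the 400 genes nearest in intensity. Points are open where the probe was not detected on both arrays, and named points are past the bar, 10 at 1 h, with Dnaja2 at 1.11, and 3 at 0 h, of which Hspb2 is open.

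Over time after flow, the measured Cct genes lay on 1 side in every flow condition. The 5 Cct genes detected on all arrays were higher at 1 h than at 0 h in RF, CF and NF alike (4 of the 5 without normalization between arrays), whereas 18.5% of all genes were higher in all 3 conditions. Cct2 was not detected at 1 h. The differences of the 5 were small, from 0.06 to 0.25 in RF, from 0.04 to 0.18 in CF and from 0.01 to 0.12 in NF, with medians of 0.09, 0.12 and 0.10. Cct8 was at 9.99 at 1 h and 9.74 at 0 h in RF, at 10.01 and 9.89 in CF and at 9.94 and 9.84 in NF. None of the 5 passed limma (adjusted p from 0.537 to 0.719). The second probes of Cct6a and Tcp1 were also higher at 1 h in each condition, whereas that of Cct3 had -0.01 in RF, -0.09 in CF and 0.13 in NF. The genes encode parts of 1 complex on the same arrays and are not separate trials.

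Among the 51 genes 14 were higher at 1 h in each of the 3 conditions (27.5%, against 18.5% of all genes). Lower in each were 6 (11.8%, against 18.4%). The 14 held, beside the Cct genes, Hsp90aa1, Hspa9, Hspd1, Bag1 and 5 Dnaj genes. Past the band of like intensity were 4 genes in RF (9.68% of all genes), 6 in CF (9.55%) and 5 in NF (9.7%). Hsp90aa1 alone was past the same end in all 3 (0.97% of all genes).

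For Hsp90aa1 the 3 arrays at 1 h, from 7.98 to 8.19, lay above the 3 arrays at 0 h, from 7.61 to 7.71. Its difference of 1 h over 0 h was 0.58 in RF, 0.44 in CF and 0.27 in NF, with the band reaching 0.25, 0.29 and 0.24. It was the only chaperone gene with an unadjusted p under 0.05 for time in limma (10.3% of probes), at 0.43 ± 0.09 (SE, 6 arrays, unadjusted p = 0.00768), and its adjusted p was 0.377. No chaperone gene and 0% of probes passed the adjusted threshold. With a variance prior that follows intensity Hsp90aa1 had an adjusted p of 0.00103, as 1 of 322 probes called and the only chaperone gene among them. The chondrocyte marker Col2a1 was also higher at 1 h, by 0.45, 0.56 and 0.67 in RF, CF and NF, and its part in the result was not tested.

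Single conditions held larger values. For Hspe1 1 h over 0 h was 0.16 in RF and 0.39 in CF, against -0.12 in NF. For Hspb1 it was 0.21 in RF and 0.39 in CF, against -0.26 in NF. Hsp90b1 had -0.14 in RF and 0.27 in CF, against -0.20 in NF. The Hsp90 medians were 0.22 (RF), 0.35 (CF) and 0.04 (NF), those of Hsp70 and Hsp110 -0.04, 0.08 and -0.05, and those of Dnaj 0.01, -0.02 and 0.00.

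**Figure D4:**
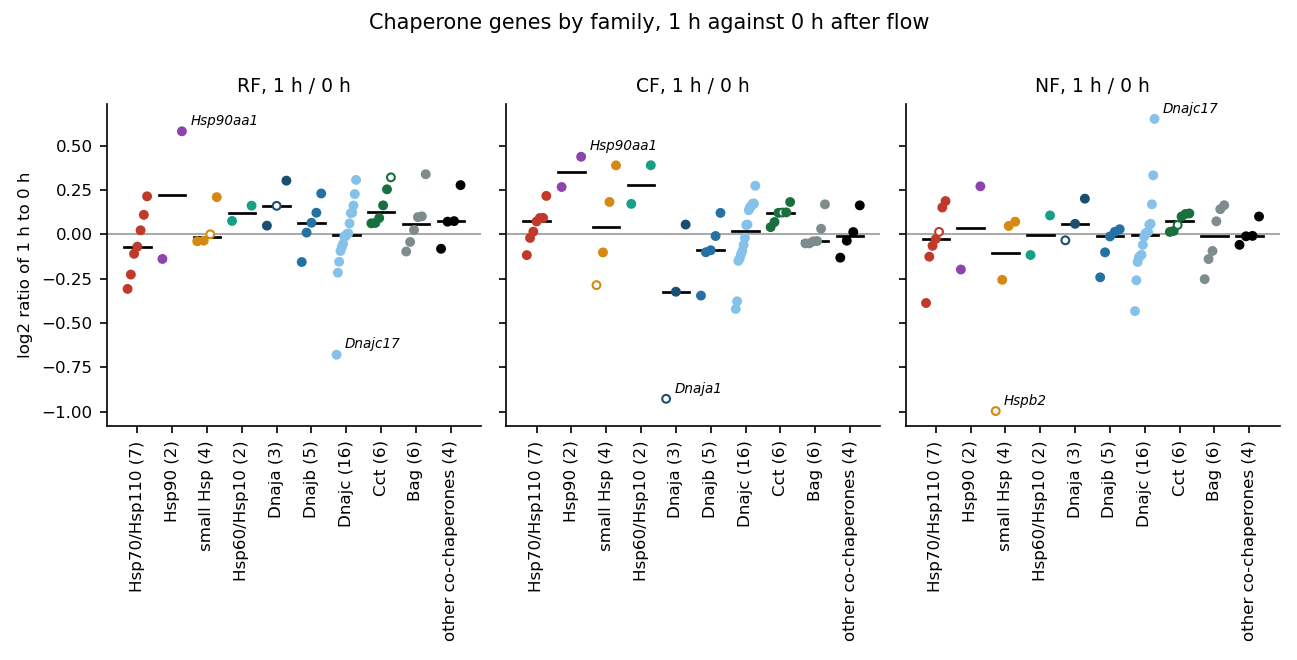
Log2 ratio of 1 h to 0 h (vertical axis) for the 55 chaperone genes by family (horizontal axis, number of genes in brackets) in RF, CF and NF; points are genes, open where the probe was not detected on both arrays, and black lines are medians of all points of a family. The 5 Cct genes detected on all arrays are above 0 in each panel (4 of them without normalization between arrays), and Hsp90aa1 is at 0.58, 0.44 and 0.27.

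A mixed list of folding genes outside the member rule had a median flow difference near 0. It held partners of heat shock factor 1 and Hsp90 beside other folding factors such as Calr, Pdia4 and Pfdn2. Heat shock factor 1 itself (Hsf1) was listed but had no named probe in the table. Of 34 listed genes 26 had a named probe in the table, 25 of them detected on all 6 arrays, and their median mean flow difference was -0.00. None had an unadjusted p under 0.05 for flow (6.1% of probes), 1 did for RF against CF (4.74%) and 2 for time (10.3%), and none passed the adjusted threshold. The 3, named after their values were seen, were Pdia6, a disulfide isomerase, higher with RF by 0.46 (its other probe by 0.03), and the Hsp90 co-chaperones Fkbp5, at 0.26, and Nudc, at 0.18, higher at 1 h (the other Nudc probe at -0.17). Hsf2, another heat shock factor, had ratios of -0.32 (RF) and -0.20 (CF) at 1 h and -0.32 (RF) and 0.08 (CF) at 0 h. Chordc1, an Hsp90 co-chaperone, had 0.16 in each regimen at 1 h and 0.03 in each at 0 h. Ptges3 (p23) and Fkbp4, further Hsp90 partners, lay between -0.02 and 0.16, and Serpinh1, the collagen chaperone, between -0.08 and 0.08. Cdc37, which brings kinases to Hsp90, read -0.37 (RF) and 0.04 (CF) at 1 h and -0.28 (RF) and -0.69 (CF) at 0 h.

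Set beside the promoters shown above, the 11 chaperone genes with a 2-unit heat shock element that were detected on all arrays had a median flow ratio of 0.02 at 1 h and 0.04 at 0 h, and the 30 without one 0.02 and -0.01. Of the 11, 7 were above no flow at 1 h and 6 at 0 h, against 16 and 14 of the 30. Genes with no matched promoter, among them Hsp90aa1, Hspa8 and Hspa9, are in neither group. The 30 lack only an exact element within the window searched. The 4 genes with a 3-unit element (Dnajb6, Hspd1, Hspe1 and Hsph1) had a median of 0.12 at 1 h and -0.05 at 0 h. Hsph1 and Dnajb6 were above no flow at 1 h in both regimens and below it at 0 h, and Hspd1 was above at both times. Hspe1 was above no flow with CF at 1 h only. Of the 3 other Dnajb6 probes, 1 had the signs of its brightest probe in all 4 ratios. Hspa1b, with its single exact element, has the bounds on its readings given above. These are descriptions of letters and ratios, and no binding was measured.

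The 55 genes had 76 probes in the table, and 16 genes had more than 1. All probes of a gene had the same sign for the mean flow difference in 9 of the 16, for RF against CF in 8 and for time in 10. Hspd1 and Hspa9 had the same sign in all 3, with second probes at 0.15 and 0.14 for the mean flow.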

How the data were processed

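Members, families and gene lists were chosen with earlier results of these data known. The deposited intensity values are background-subtracted GenomeStudio signals of MouseWG-6 v2.0 arrays, each with a deposited detection p-value. The authors quantile normalized them in lumi, set values under 10 to 10, took log2 and kept probes with a detection p under 0.01 on at least 1 array, which gave the deposited log2 table of 15686 of 45281 probes. The same steps repeated here differed by at most 5.0e-08. On the rest-inserted flow 1 h array 25281 detection cells repeat the signal, and detection there was taken from the signal at which the 20000 intact cells divide, between 17.82 and 17.84. Probes with no symbol, several symbols or a RIKEN name were left out, which left 13183 probes.

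Ratios were taken between single arrays of the log2 table. Counts and medians over chaperone genes are, except where stated, over those detected on all 6 arrays, a choice made after their values were seen. Limma 3.58.1 (R 4.3.3) fitted flow and time additively to the 6 arrays with a constant variance prior and Benjamini-Hochberg adjustment over 13183 probes. The p-values use the 2 times as repeats of a flow condition. The fit was also run on simulated data with independent values, no effect of time and the same change at both times. Such data cannot test the use of the times as repeats. For a probe not well above background in a group, the bound used the lowest detected signal of each array. Named genes were all Hsp70, Hsp110, Hsp90, small Hsp, Hsp60, Hsp10 and Cct genes and, of the others, the 4 with the largest mean flow and the 4 with the largest RF against CF difference in size among those detected on all arrays, and any further gene was named after its values were seen. Alternatives were the prior, median scaling, no normalization, a floor of 32, detection on all arrays, no filter, the mean of probes, a model without the other factor and leaving out each array. Promoter sequences are from RefSeq. Tables of amino acid sequence were not used here.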

Additional observations from a re-analysis of the deposited data

Results flagged for a closer look

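The Hsp90 pair was flagged because its median flow effect pointed opposite ways at the 2 times in both regimens. Of the 2 genes, Hsp90b1 kept its sign with RF (0.064 at 1 h and 0.0046 at 0 h). The median log2 ratio of the pair to no flow was 0.13 (RF) and 0.19 (CF) at 1 h, and -0.050 (RF) and -0.13 (CF) at 0 h. This difference between the times was not tested, both regimens share the no flow array of each time, and the median is over 2 genes. Opposite signs of this kind held for 13 of the 55 chaperone genes (23.6%) and for 22.7% of all genes.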

How the results depend on the processing

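Each of the 5 counts of chaperone genes called by limma was 0, and it stayed 0 under each of 14 alternatives, except that the prior that follows intensity called 1 gene (Hsp90aa1) for 1 h against 0 h. Of 270 recomputed family medians, taken here over all members of a family, 265 moved by less than the residual spread of the family. That spread was 0.157 for small Hsps and 0.144 for Hsp90, near the size of the medians themselves. Some alternatives also leave a ratio unchanged, as when an array outside it is left out. The count therefore does not show that the medians were stable. With a floor of 32, the Hsp70 and Hsp110 median for the mean of both flows at 1 h was 0.029, against 0.092, and that of the small Hsps was 0.0079, against 0.165. Without Hspb2, that is over probes detected on all arrays, the small Hsp median was 0.016. When arrays were left out, the small Hsp median at 1 h ranged from -0.019 (without CF at 1 h) to 0.264 (without RF at 1 h), and the Cct median at 0 h from -0.087 (without CF at 0 h) to 0.033 (without RF at 0 h). The adjusted p for the mean flow difference of Hspa1b lay between 0.136 and 1 over its alternatives, and that of Dnaja2 for RF against CF between 0.128 and 1, with differences from 0.354 to 1.088. With a floor of 32 Hspb2 had no difference left between the regimens (0), and Hspa1b had 0.003. The 5 Cct genes detected on all arrays stayed higher at 1 h in each condition with median scaling, a floor of 32, without the detection filter, with the mean of probes and without each array, and 4 did with no normalization. Medians were the same without the detection filter, since only probes of the deposited table carry names here. The labels give no replicate numbers, and the additive fit itself sets flows against each other within a time and times within a flow condition. Signal over background limits Hspa1b, Hspb2, Dnaja1 and Cct2.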
